A study of Mus musculus with 8 samples.

Results

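Ankyrin-repeat and SOCS-box (Asb) genes encode adaptors of a ubiquitin ligase, and 10 of them known from skeletal muscle are described here: Asb2, Asb4, Asb5, Asb8, Asb10, Asb11, Asb12, Asb14, Asb15 and Asb18. They were found by gene name in the FPKM tables (fragments scaled to transcript length and to the mapped total), and all 10 were present among 24341 genes. The list was chosen by the FPKM of Asb10 and Asb4 in this same contrast, which were known to be lower in the knockout, so the genotype difference of those 2 genes is given as a description, and the question asked was whether the other 8 were lower too. Each mouse contributed 1 library of tibialis anterior, a mostly fast muscle at the front of the shin. The 4 knockout animals, Carm1 skm-/-, carried floxed Carm1 and the HSAcre transgene (Tg/0), in which Cre recombinase is driven by human skeletal actin sequences and is made by the fibres rather than the other cells of a muscle. The 4 wildtype animals, Carm1 skm+/+, carried the same floxed Carm1 without the transgene (HSAcre 0/0), so presence of Cre and deletion of Carm1 cannot be told apart. All were 12 weeks old, fed chow and described as male.

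In the protein family, ankyrin repeats hold the substrate and a SOCS box at the end of the chain binds elongin B and elongin C. These join the scaffold cullin 5 and the ring protein Rnf7, and a conjugating enzyme then passes ubiquitin to the substrate, which is often degraded. The adaptor therefore decides what the ligase acts on. Asb2 is the best studied member in striated muscle, where it acts on filamins and desmin and where its level is tied to muscle mass. Asb4 is an imprinted gene of mouse chromosome 6, expressed from the maternal copy. Asb15 has been studied as a regulator of muscle growth, Asb11 as a regulator of Notch signalling in zebrafish, and human ASB8 as a regulator of the kinase TBK1.

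Carm1, the arginine methyltransferase targeted in the knockout, stood at 15.4 ± 2.57 scaled FPKM in knockout muscle and 30.5 ± 4.82 in wildtype muscle (mean ± SD, n = 4 each; scaled means divided by 1 factor per library, between 0.904 and 1.07). Read counts are not given, and the steps between low values put the depth of the libraries at 81.0% to 100% of the deepest. Xist, which coats the silenced X in female cells, stood at 19.6 to 22.9 FPKM in 3 libraries, knockout 2, knockout 4 and wildtype 1. It stood at 0.0662 FPKM or less in the other 5, although all animals are described as male. The Y-linked genes Eif2s3y and Ddx3y ran the other way. In the 3 libraries with Xist they stood at 0.112 and 0.0444 FPKM or less. In the other 5 they stood at 42.3 to 58.1 and at 8.08 to 13.6 FPKM. Myh2, the type IIa myosin gene, stood at 1442 and 1438 scaled FPKM in knockout 2 and knockout 4 and at 782 in wildtype 1, against 119 to 173 in the other 5. Fits that include Xist presence, or that use only the 5 libraries lacking it, are therefore given too. Among fibre genes that defined the tissue, Pvalb, Mylpf, Tnnc2 and Actn3 were measured in every library, while Acta1, Ckm, Tnnt3 and Atp2a1 were listed at 0 with a low-data status in at least 1 and were not used.

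The promoters of Asb10 and Asb4, the genes that gave rise to the choice, and of Asb5, whose variation between animals followed that of Asb10 most closely, are printed as RefSeq gives them on GRCm38.p6, 250 bases before to 50 bases after an annotated start. Asb10 is on the minus strand (chr5:24540929-24541228), and Asb4 (chr6:5383136-5383435) and Asb5 (chr8:54550081-54550380) are on the plus strand. Capitals mark matches to 2 motifs of factors active in muscle, the E-box CANNTG and the TEAD core CATTCC, or GGAATG when read on the other strand.
Asb10: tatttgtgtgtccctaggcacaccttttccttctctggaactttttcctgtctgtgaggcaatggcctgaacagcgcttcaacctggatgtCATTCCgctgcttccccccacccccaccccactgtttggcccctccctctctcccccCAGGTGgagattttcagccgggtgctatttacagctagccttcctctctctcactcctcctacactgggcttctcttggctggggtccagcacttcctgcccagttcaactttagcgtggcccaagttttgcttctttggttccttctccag
Asb4: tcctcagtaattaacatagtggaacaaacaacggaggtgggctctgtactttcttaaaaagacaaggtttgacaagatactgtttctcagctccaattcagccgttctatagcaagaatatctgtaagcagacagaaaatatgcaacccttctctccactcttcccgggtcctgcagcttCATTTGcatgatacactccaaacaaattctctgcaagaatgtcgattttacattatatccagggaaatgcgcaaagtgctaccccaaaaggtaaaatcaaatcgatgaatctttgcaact
Asb5: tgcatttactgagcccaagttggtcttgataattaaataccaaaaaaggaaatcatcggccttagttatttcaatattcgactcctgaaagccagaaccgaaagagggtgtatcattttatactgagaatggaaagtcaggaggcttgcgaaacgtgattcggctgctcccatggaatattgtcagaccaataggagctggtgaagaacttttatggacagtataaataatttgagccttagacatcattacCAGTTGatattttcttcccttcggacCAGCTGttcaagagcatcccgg
All 10 genes were matched to this promoter table by symbol, with 15 annotated starts in all. An E-box was found at 13 of the 15 starts and in 9 of the 10 genes, all but Asb8, and 72.3% of all 32851 promoters hold the same letters. CATTCC was found at 2 of the 15 starts, 1 of Asb10 and 1 of Asb8, against 14.7% of all promoters. The core of the MEF2 motif was searched only as 10 bases that start with CTA and end in TAG. It was found at 2 of the 15 starts, against 3.69% of all promoters. These were 1 of Asb18, as CTATTTATAG, and 1 of Asb12, as CTAAAAATAG, with first bases at -11 and -48 where the start is 0. Variants of the core with another first or last base were not searched. A stretch in the Asb14 promoter that differs from the Asb18 match only in its last base was therefore not counted. All motifs were searched on both strands, matches of the E-box may overlap each other, and none of the matches to different motifs overlapped. A match is a stretch of letters and says nothing of whether a factor binds there.

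The genes lie on 8 chromosomes, and in the deposited tables none of the 10 loci (mm10) overlapped another listed gene. Asb10 lies on chromosome 5 from 24532697 to 24540448 and Asb4 on chromosome 6 from 5383386 to 5433021. Asb15 also lies on chromosome 6, from 24528144 to 24573164, and Asb11 and Asb12 lie on the X chromosome. In the GENCODE M21 annotation of the same assembly, Asb2 is overlapped by the antisense gene Gm15523, and the longest form of Asb5 reaches into Spcs3 and the antisense gene 5330439A09Rik. The library kit is not said to mark strand, so reads of Gm15523 could be counted in Asb2. The longest form of Asb5 starts at 54529580 and its deposited locus at 54550331. Reads of its partners could be counted in Asb5 only where they fall inside that deposited locus. The annotated start of Asb10, at 24540978, lies outside the locus in the deposited tables, which were made with another annotation.

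The 10 genes covered a wide range of levels, and FPKM, being per length, allow them to be ranked. In wildtype muscle Asb2 stood highest at 296 ± 93.0 scaled FPKM, followed by Asb11 at 180 ± 41.7 and Asb5 at 172 ± 42.1 (mean ± SD, n = 4 each). Asb14, Asb8 and Asb10 formed a middle group at 71.2 ± 6.89, 68.9 ± 6.88 and 62.5 ± 7.89, and Asb12 and Asb15 followed at 29.5 ± 4.09 and 18.9 ± 5.92. Asb18 at 7.15 ± 3.52 and Asb4 at 5.37 ± 1.19 were lowest. Between neighbours in this order the ranges of the 4 animals overlapped except between Asb5 and Asb14, between Asb10 and Asb12, and between Asb15 and Asb18. In knockout muscle the order was the same except that Asb8, at 64.3 ± 9.59, stood above Asb14, at 55.9 ± 9.31. There the ranges of Asb10 and its next higher neighbour Asb14 no longer overlapped, while those of Asb10 and Asb12 did. The summed level of the 10 genes was 763 to 890 FPKM in knockout libraries and 761 to 1016 FPKM in wildtype libraries.

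**Figure D1:**
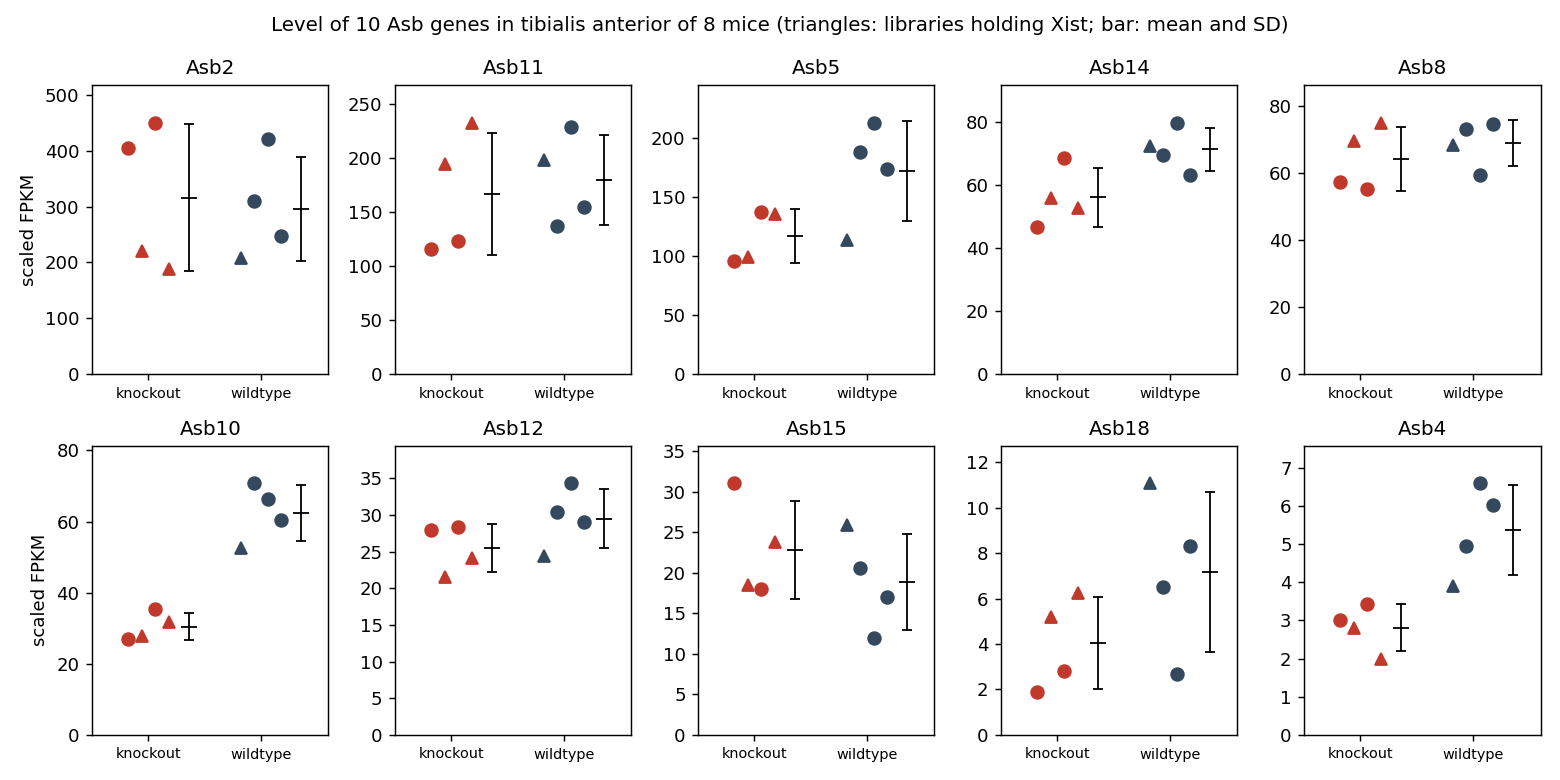
Level of each of the 10 Asb genes in scaled FPKM (vertical axis, from 0) in the 4 knockout and the 4 wildtype libraries, with mean and SD as a bar; triangles are the 3 libraries that hold Xist. For Asb10 and Asb4 every knockout library lies below every wildtype library, and for the other 8 genes the groups overlap.

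For Asb10 and Asb4 all 4 knockout libraries lay under all 4 wildtype libraries, and for none of the other 8 genes did they. Asb10 stood at 26.9, 27.8, 35.5 and 31.7 scaled FPKM in knockouts 1 to 4, against 52.6, 70.7, 66.5 and 60.3 in wildtypes 1 to 4. The 4 knockout values lay close together and the highest of them was well under the lowest wildtype value. The mean was 30.5 ± 3.92 in knockouts and 62.5 ± 7.89 in wildtypes, so the knockout mean was 48.7% of the wildtype mean, and the log2 difference on the scale of scaled FPKM + 1 was -1.01 (SE 0.12). Human ASB10 is expressed in the eye and has been studied in glaucoma, and its role in muscle is not well known.

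Asb4 was the least abundant of the 10, at 3.02, 2.81, 3.44 and 1.98 scaled FPKM in knockouts 1 to 4, against 3.92, 4.94, 6.59 and 6.02 in wildtypes 1 to 4. The groups did not overlap, but knockout 3 and wildtype 1 were near each other. The knockout mean was 52.4% of the wildtype mean and the log2 difference was -0.74 (SE 0.16). On this scale the change of a low gene is understated, and with 0.1 in place of 1 added before the logarithm the log2 difference of Asb4 was -0.91. As these 2 genes were the reason for the choice, Asb10 at -1.01 and Asb4 at -0.74 stand at the low end of the list by construction.

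As all 4 knockouts lay under all 4 wildtypes for both genes, any split of the libraries shows the same order, and the values by Xist are given for their size alone. Within the 3 libraries that hold Xist, Asb10 stood at 27.8 and 31.7 scaled FPKM in knockouts 2 and 4, against 52.6 in wildtype 1, and Asb4 at 2.81 and 1.98, against 3.92. Within the 5 others, Asb10 stood at 26.9 and 35.5 in knockouts 1 and 3, against 60.3 to 70.7 in the 3 wildtypes, and Asb4 at 3.02 and 3.44, against 4.94 to 6.59. With presence of Xist as a covariate the log2 differences were -0.97 for Asb10 and -0.64 for Asb4.

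**Figure D2:**
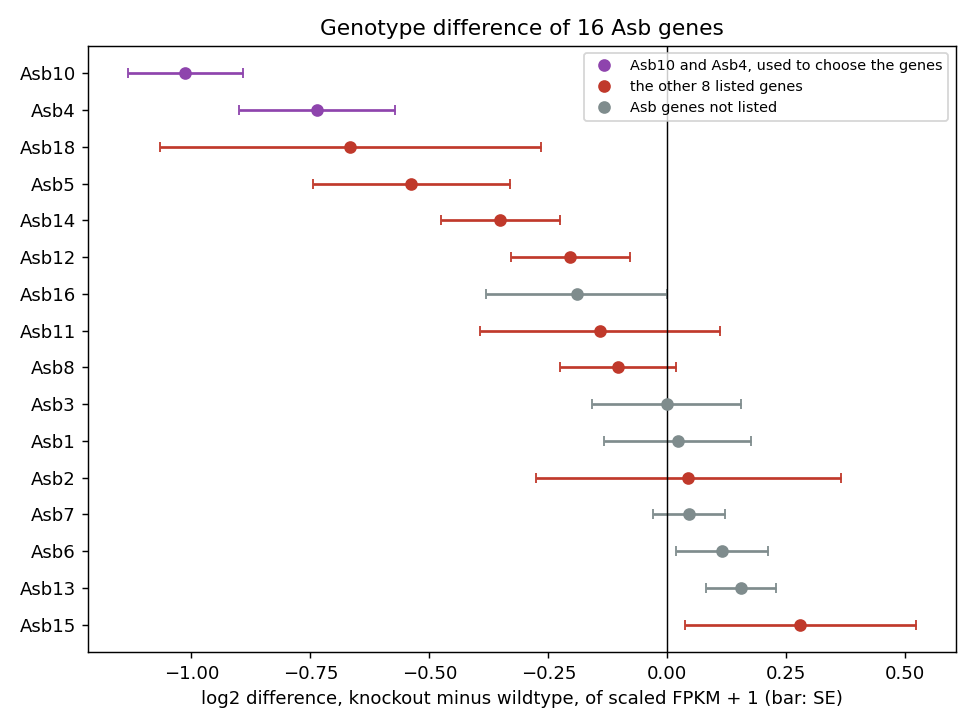
Log2 difference, knockout minus wildtype, of scaled FPKM + 1 (horizontal axis) with its standard error for the 16 Asb genes tested (vertical axis). Asb10 at -1.01 and Asb4 at -0.74, used to choose the genes, are lowest, Asb15 at 0.28 is highest, and the 6 genes not listed lie between -0.19 and 0.16.

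Of the 8 other genes, none passed the test across all genes (limma with Benjamini-Hochberg adjustment over 11096 genes, threshold 0.05), and 2 were lower at an unadjusted p under 0.05. In that comparison 0.36% of all genes were called in either direction and 0.162% were called lower, while 6.07% were lower and 7.03% higher at an unadjusted p under 0.05. Of all 10 genes only Asb10 was called, and since it was chosen in this contrast nothing is read from that count. Groups did not overlap for 0 of the 8, against 8.31% of all genes, and 3.63% of all genes were lower in knockouts without overlap. In the 5 libraries without Xist 4 of the 8 were lower without overlap, Asb5, Asb8, Asb11 and Asb12, against 15.1% of all genes, and without knockouts 2 and 4 it was 2, Asb8 and Asb11, against 11.7%. The log2 difference was below 0 for 6 of the 8, against 50.5% of all genes, and their median was -0.17, against -0.00 for all genes tested. That median was -0.30 in the 5 libraries without Xist, -0.30 without knockouts 2 and 4, the only libraries with a value for the myosin gene Myh4, and -0.086 without scaling, with 6 of the 8 below 0 each time. Without scaling the median of all genes tested was 0.071. With the covariate 0 of the 8 were called, where 0.919% of all genes were called lower. In that fit 3 of the 8 were lower at an unadjusted p under 0.05, as were 932 of 11096 genes. Asb10 and Asb4 were called with the covariate, and as both were chosen in this contrast nothing is read from that. In the 5 libraries without Xist limma called 0 of the 10 and 1 gene of 10641 in all, or 0.0094%. None of the 8 was called in any of the alternative fits.

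With all 8 libraries and no covariate, Asb5 and Asb14 were the 2 genes of the 8 with an unadjusted p under 0.05. Asb5 has been described in the growth of collateral arteries in the rabbit. It stood at 95.8, 99.0, 137 and 136 scaled FPKM in knockouts 1 to 4, against 114, 188, 213 and 174 in wildtypes 1 to 4. Wildtype 1 lay among the knockouts, and the other 3 wildtypes lay above all of them. The log2 difference was -0.54 (SE 0.21, 95% interval -1.01 to -0.07, adjusted p = 0.317 in limma). In the 5 libraries without Xist it was -0.73 (adjusted p = 0.241 in limma), with the 2 knockouts at 95.8 and 137 and the 3 wildtypes between 174 and 213 scaled FPKM.

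Asb14, an adaptor whose substrates are not well known, stood at 46.5, 55.9, 68.6 and 52.7 scaled FPKM in knockouts 1 to 4, against 72.4, 69.5, 79.7 and 63.0 in wildtypes 1 to 4. The overlap came from knockout 3, which lay above wildtype 4 and below the other wildtypes. Its log2 difference was -0.35 (SE 0.13, 95% interval -0.64 to -0.06, adjusted p = 0.28 in limma). The difference changed little with the covariate, at -0.35, or in the libraries without Xist, at -0.31.

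Asb18 had a lower mean in knockouts but varied most between animals. It stood at 1.88, 5.17, 2.82 and 6.24 scaled FPKM in knockouts 1 to 4, against 11.1, 6.53, 2.68 and 8.33 in wildtypes 1 to 4. The highest library held 5.89 times the level of the lowest, and the SD was 50.2% of the mean in knockouts and 49.2% in wildtypes. The log2 difference of -0.67 had an SE of 0.40 and a 95% interval of -1.58 to 0.24 (adjusted p = 0.518 in limma). Wildtype 3 lay among the low knockouts, and without it the log2 difference was -1.01. A difference as large as that of Asb10 lies inside the interval of Asb18, and so does 0. This fit therefore does not show whether Asb18 changed. With presence of Xist as a covariate its log2 difference was -0.91 (SE 0.28, adjusted p = 0.141 in limma), again not called.

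Asb12 and Asb8 had small differences over all 8 libraries, with intervals that include 0. Asb12 stood at 28.0, 21.5, 28.4 and 24.1 scaled FPKM in knockouts 1 to 4, against 24.4, 30.4, 34.3 and 29.0 in wildtypes 1 to 4, and the groups overlapped. Its log2 difference was -0.20 (95% interval -0.49 to 0.08, adjusted p = 0.529 in limma). Asb8 stood at 57.4, 69.6, 55.2 and 75.1 scaled FPKM in knockouts 1 to 4, against 68.4, 73.2, 59.4 and 74.7 in wildtypes 1 to 4. The highest value of Asb8 was in a knockout and the ranges nearly coincided. Its log2 difference was -0.10 (95% interval -0.38 to 0.17, adjusted p = 0.771 in limma). In the 5 libraries without Xist the difference was -0.28 for Asb8 and -0.14 for Asb12.

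Asb2, Asb11 and Asb15 showed spreads between animals larger than any difference between genotypes. Asb2 stood at 405, 220, 450 and 189 scaled FPKM in knockouts 1 to 4, against 208, 309, 421 and 247 in wildtypes 1 to 4. Both the highest and the lowest animal were knockouts. The log2 difference was 0.04 (95% interval -0.68 to 0.77, adjusted p = 0.969 in limma). Asb11 stood at 116, 194, 124 and 233 scaled FPKM in knockouts 1 to 4, against 198, 137, 229 and 155 in wildtypes 1 to 4. Here too the highest and the lowest animal were knockouts, and the log2 difference was -0.14 (95% interval -0.71 to 0.43). Asb15 had the highest difference of the 10, at 0.28 (95% interval -0.27 to 0.83, adjusted p = 0.679 in limma), with 31.0, 18.5, 17.96 and 23.8 scaled FPKM in knockouts 1 to 4, against 26.0, 20.6, 11.9 and 17.0 in wildtypes 1 to 4. The groups overlapped widely, and the interval includes 0.

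Within each genotype the 10 genes did not vary together as a block. Over 45 pairs of the 10, correlations of log2 values across the 8 libraries after genotype means were removed ran from -0.92 to 0.90 with a median of -0.08, and 8 pairs were over 0.5 and 11 under -0.5. Each is a description over 8 libraries that share their scaling. Asb10 varied most like Asb5 (0.90), Asb12 (0.62) and Asb14 (0.55). Asb4 varied most like Asb2 (0.79) and Asb12 (0.72), and Asb2 and Asb12 stood at 0.89. On the other side, Asb18 and Asb8 varied together (0.82), and both ran against Asb2 (-0.92 and -0.89).

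**Figure D3:**
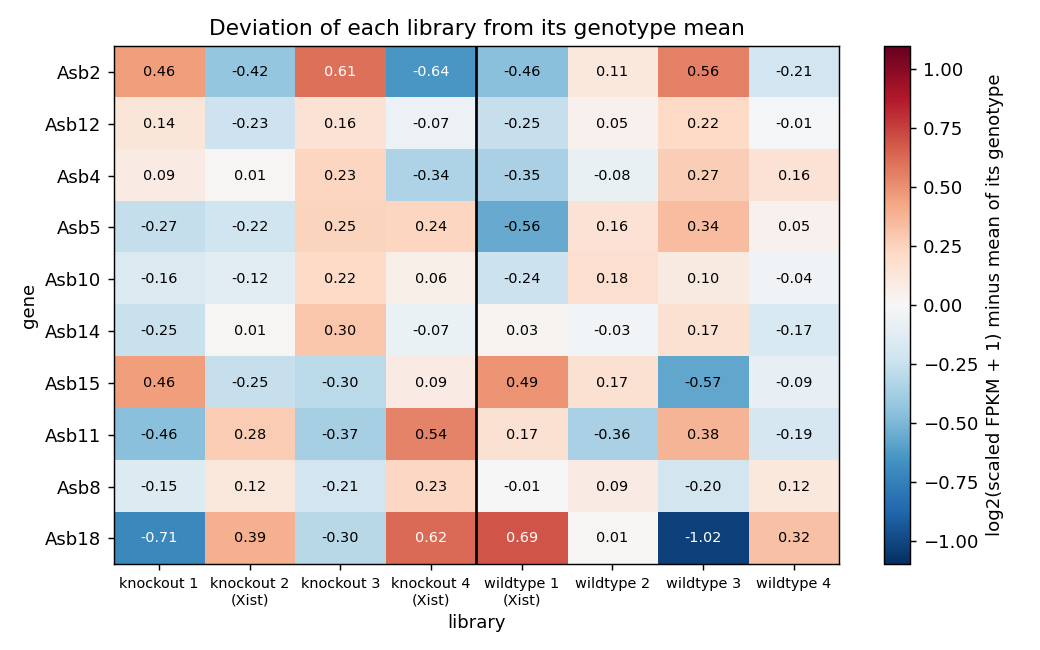
Deviation of each library from the mean of its own genotype, in log2(scaled FPKM + 1), for the 10 genes (rows) in 4 knockout and 4 wildtype libraries (columns). Asb2 is below its genotype mean and Asb18 above it in knockout 2, knockout 4 and wildtype 1, the libraries marked as holding Xist.

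Many genes of the muscle differed between the 3 libraries that hold Xist and the other 5. In both genotypes Asb2, Asb4 and Asb12 were lower in each library with Xist than in each without, and Asb18 was higher. These are 4 of the 10, or 40%, and 35.0% of all genes tested lay apart in the same way, so the count is near that of all genes. For Asb2 the libraries with Xist stood at 189 to 220 scaled FPKM in knockouts, against 405 to 450 in knockouts without, and at 208 in the wildtype with Xist, against 247 to 421 in wildtypes without. For Asb18 they stood at 5.17 to 6.24 in knockouts, against 1.88 to 2.82, and at 11.1 in the wildtype, against 2.68 to 8.33. Of the 6 tested Asb genes not listed, 4 were higher in each library with Xist in both genotypes, Asb1, Asb3, Asb13 and Asb16. That is 66.7%, against 17.8% of all genes tested in that direction. Xist was held by 2 knockouts and 1 wildtype. Over all settings the log2 difference of Asb2 ran from -0.16 to 0.58 without a call. It was 0.04 over all 8 libraries, 0.26 with the covariate and 0.43 in the 5 libraries without Xist (adjusted p between 0.46 and 0.969 in limma). For Asb11 the same 3 values were -0.14, -0.28 and -0.50, and for Asb18 -0.67, -0.91 and -0.94, none of them called. Whether sex, fibre type or another property of these animals goes with the Asb levels was not tested.

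The 8 Asb genes not listed served to show how far the rest of the family moved. Asb9, whose product acts on creatine kinase B, and Asb17 stood at 0.124 FPKM or less in every library and were not tested. Of the 6 tested, limma called 0 (0 at an unadjusted p under 0.05), 4 were above 0, and the median log2 difference was 0.03. That median was -0.03 with presence of Xist as a covariate, -0.02 in the libraries without Xist and -0.089 without knockouts 2 and 4. In each of these settings 3 of the 6 were above 0. In the libraries without Xist 1 of the 6 was lower without overlap, against 15.1% of all genes. Asb13 stood at 12.0, 12.1, 12.1 and 12.7 scaled FPKM in knockouts 1 to 4, against 11.4, 11.4, 9.68 and 11.1 in wildtypes 1 to 4. Every knockout lay above every wildtype, which held in that direction for 4.68% of all genes, and the log2 difference of 0.16 was not called (adjusted p = 0.416 in limma). Asb16, the most abundant of the 6, stood at 22.8, 30.4, 21.5 and 32.5 scaled FPKM in knockouts 1 to 4, against 40.9, 30.0, 22.8 and 29.9 in wildtypes 1 to 4. The groups overlapped, with a log2 difference of -0.19. With presence of Xist as a covariate the difference of Asb16 was -0.32 (SE 0.099). Over all settings it ran from -0.43 to -0.049 without a call. Asb1, Asb3, Asb6 and Asb7 stood between 1.88 and 8.73 scaled FPKM, with log2 differences between -0.00 and 0.12.

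None of the parts of the ligase that the Asb proteins share was called. Of 18 genes for the cullin-RING core and its conjugation machinery, limma called 0 (2 lower at an unadjusted p under 0.05), 10 were below 0, and the median log2 difference was -0.04. The scaffold Cul5 stood at 17.5 ± 2.08 scaled FPKM in knockouts and 18.1 ± 1.599 in wildtypes, and its ring partner Rnf7 at 70.9 ± 3.85 and 78.7 ± 2.31 (mean ± SD, n = 4 each). With scaling, Rnf7 was lower in every knockout than in every wildtype, with a log2 difference of -0.15 that was not called (adjusted p = 0.417 in limma). Without scaling it was -0.061 and with quantile normalization -0.092, both with overlap, and neither setting left a gene of the 18 at an unadjusted p under 0.05. The median of the 18 was 0.043 without scaling, against 0.071 for all genes tested. The 2 genes with the smallest p were Tceb1, which encodes elongin C, at -0.27, and Ube2d1, a conjugating enzyme, at -0.35. Tceb1 stood at 73.9 ± 8.53 scaled FPKM in knockouts and 88.8 ± 6.75 in wildtypes, and Tceb2, for elongin B, at 263 ± 56.5 and 316 ± 58.7, with overlap between the groups for both. The 9 genes of the COP9 signalosome, which removes Nedd8 from cullins, had a median of -0.04, and none was called by limma, or passed at an unadjusted p under 0.05. Cops3 at 0.13 and Cops4 at -0.12 had the smallest p.

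Among 29 other adaptors with a SOCS box or the related box of Vhl, 27 were tested and limma called 0 (1 at an unadjusted p under 0.05). Their median log2 difference was 0.02. Fem1a, an adaptor of cullin 2 that recognises chain ends, stood at 63.0 ± 3.45 scaled FPKM in knockouts and 81.3 ± 5.99 in wildtypes (mean ± SD, n = 4 each), without overlap. Its log2 difference of -0.36 was not called with all 8 libraries (adjusted p = 0.115 in limma) and was called with presence of Xist as a covariate, at -0.39 (adjusted p = 0.0394 in limma). Spsb1, an adaptor that targets inducible nitric oxide synthase, differed by -0.73 with overlap between the groups.

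None of the transcripts of proteins reported as Asb substrates was called. Of 11 listed, 10 were tested, limma called 0 (0 at an unadjusted p under 0.05), and the median log2 difference was -0.05. Des, encoding desmin, stood at 1099 ± 178 scaled FPKM in knockouts and 1155 ± 130 in wildtypes, and Flnc, the filamin of muscle, at 79.7 ± 11.4 and 69.8 ± 12.1 (mean ± SD, n = 4 each). The 2 with the smallest p were the methyltransferase gene Kmt2a, at 0.16, and Flna, at -0.23. Without scaling Kmt2a was higher in every knockout, at 0.23 and an unadjusted p of 0.0207 in limma (adjusted p = 0.238). In that setting 914 of 11111 genes were higher without overlap and 1286 were higher at an unadjusted p under 0.05. The median of the list was then 0.035, against 0.071 for all genes tested. RNA levels do not show the amount of a protein that a ligase would change.

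**Figure D4:**
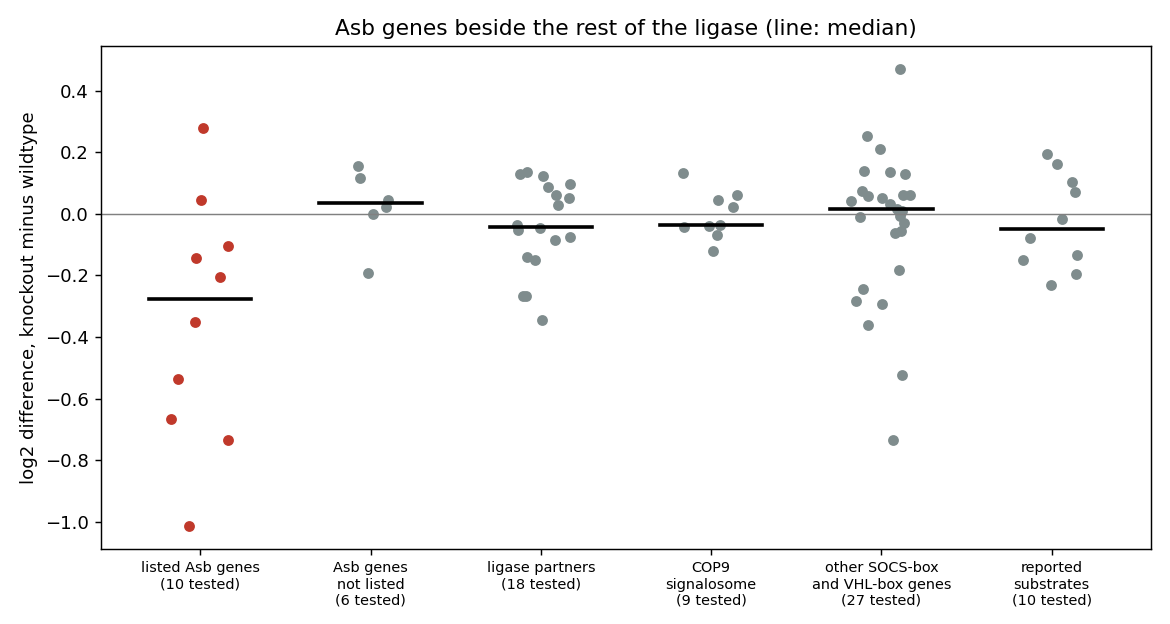
Log2 difference, knockout minus wildtype (vertical axis), of each tested gene of the 10 listed Asb genes, the Asb genes not listed and 4 lists of the ligase and its substrates; lines are medians. The listed Asb genes include Asb10 and Asb4, chosen for their low values, so their median of -0.28 cannot be set against the others. The 8 without them have a median of -0.17, and the other lists lie between -0.05 and 0.03. Without scaling the medians of the other lists are all above 0, and so is that of all genes tested, at 0.071.

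None of the genes measured around Asb10 and Asb4 was called. The listed neighbours of Asb10 on chromosome 5, Gbx1 and 4931409K22Rik, were at or near 0 FPKM in every library. On either side of Asb4 lie Pon2, at 39.9 ± 8.81 scaled FPKM in knockouts and 33.0 ± 1.04 in wildtypes, and Pdk4, at 127 ± 66.7 and 162 ± 101 (mean ± SD, n = 4 each). Both overlapped between the groups, with log2 differences of 0.24 and -0.39. Of 11 genes of the imprinted neighbourhood of Asb4, 5 were tested and limma called 0 (0 at an unadjusted p under 0.05), with a median of -0.09. Pon3, a paraoxonase gene, had the smallest p, at -0.44, and Sgce, an imprinted sarcoglycan gene, differed by -0.09.

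By Pearson's r of log2 values over the 8 libraries, the named genes most like Asb10 were Alyref (0.99), an mRNA export adaptor, Rtfdc1 (0.98), Gpx1 (0.98), a glutathione peroxidase, Slco3a1 (0.97), an anion transporter, and Art1 (0.97), an ADP-ribosyltransferase of the muscle surface. With genotype means removed these were 0.91, 0.82, 0.70, 0.69 and 0.70. Those most like Asb4 were Ttc1 (0.95), Abt1 (0.94), Ankrd6 (0.93), Irak3 (0.93) and Smarce1 (0.93), or 0.83, 0.87, 0.73, 0.76 and 0.79 with genotype means removed. They are the highest among all tested genes, so high values were bound to occur.

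No fibre gene or marker of another cell type was called, and in whole muscle fewer cells of a type and less RNA per cell cannot be told apart. The 9 tested contractile genes of fast fibres were all below 0, with a median log2 difference of -0.35, and their summed level was 70182 to 109362 FPKM in knockouts and 100501 to 136524 in wildtypes. This rested on knockouts 2 and 4: without them 4 of the 9 were below 0 with a median of 0.033, and in the 5 libraries without Xist 6 of 9 with a median of -0.090. With quantile normalization the median was -0.12. Limma called 0 of them (1 at an unadjusted p under 0.05), Mylpf at -0.59 and Myl1 at -0.52 having the smallest p. Of 9 tested genes of slow fibres 8 were above 0, with a median of 0.53, 0 called (3 at an unadjusted p under 0.05), and without knockouts 2 and 4 the median was 0.13 with 6 of 9 above 0. Summed slow genes stood at 721 and 710 FPKM in knockouts 2 and 4 and 757 in wildtype 1, the libraries with Xist, against 199 to 282 in the other knockouts and 205 to 241 in the other wildtypes. Log2 differences were below 0 for 8 of 8 fibro-adipogenic, 8 of 8 endothelial and 7 of 7 smooth muscle markers, against 50.5% of all genes. The medians of these lists were -0.16, -0.16 and -0.33. Without wildtype 3 the fibro-adipogenic median was -0.093, and without knockout 2 the endothelial median was -0.048. Both medians were -0.076 without scaling, where that of all genes tested was 0.071. Their summed levels were 331 to 514, 276 to 338 and 215 to 286 FPKM in knockouts, against 371 to 685, 303 to 368 and 227 to 360 in wildtypes. Summed macrophage markers lay between 37.0 and 74.8 FPKM in knockouts and between 42.4 and 79.8 in wildtypes, and satellite cell markers between 54.7 and 81.9 and between 49.5 and 80.9. Summed adipocyte and Schwann cell markers lay between 4.19 and 24.9 and between 90.7 and 99.3 FPKM in knockouts, against 10.02 to 20.8 and 81.7 to 134 in wildtypes. By sign, 6 of 6 Schwann cell, 2 of 2 adipocyte, 2 of 4 satellite cell and 1 of 7 macrophage markers tested were below 0. Limma called 0 genes of these 7 lists (6 at an unadjusted p under 0.05). Their part in the levels of Asb genes was not tested.

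**Figure D5:**
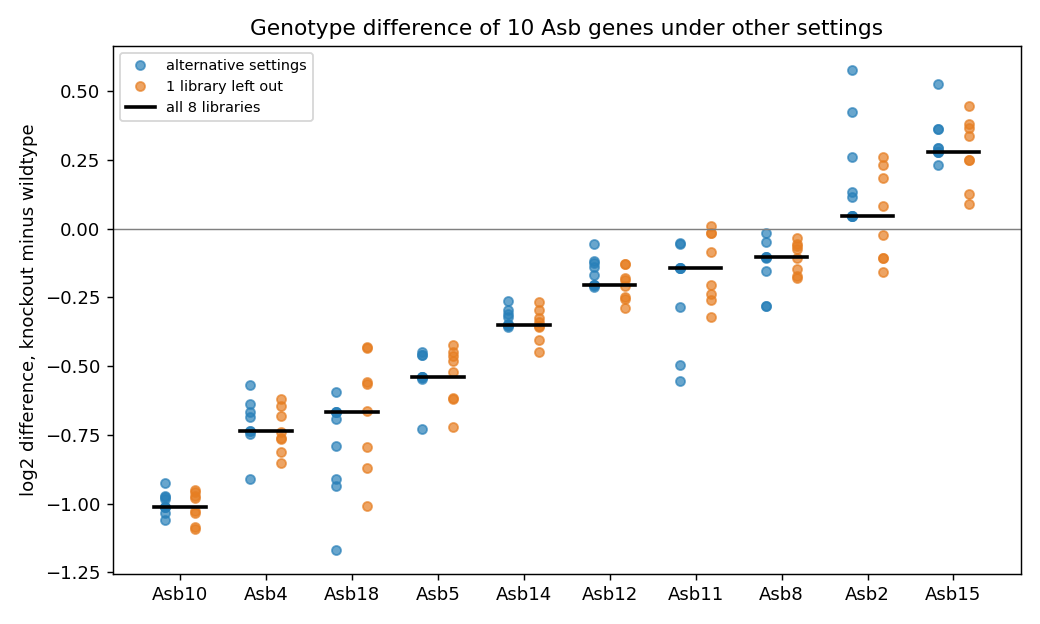
Log2 difference, knockout minus wildtype (vertical axis), of the 10 genes with all 8 libraries (line), under the alternative settings and with 1 library left out (points). Asb10 stays between -1.09 and -0.93 and Asb4 between -0.91 and -0.57, while Asb2 and Asb11 take values on both sides of 0.

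Left-out libraries moved the 8 other genes without bringing any to a call. When any 1 library was left out, Asb5 lay between -0.72 and -0.42, Asb14 between -0.45 and -0.27 and Asb12 between -0.29 and -0.13 on the log2 scale. Asb18 ranged from -1.01 without wildtype 3 to -0.43 without knockout 1, and was -0.44 without wildtype 1. Asb10, given as a description, was called in 2 of the 8 such fits, those without wildtype 1 and without knockout 3, and Asb4 in 0. All p-values measure the spread between the animals of this series.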

How the data were processed

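Total RNA of tibialis anterior from 8 mice, 4 knockout and 4 wildtype, was extracted with Trizol and made into TruSeq RNA v2 libraries, per the labels' protocols. STAR and Cufflinks with the build mm10 are named in the submitters' processing notes, while their versions and the annotation were not given in the sources used here. Values are FPKM per gene as the authors deposited them, 1 table per library in the Cufflinks layout per the file headers, and no read counts are given. Coordinates in the tables count from 0 and are printed here counted from 1.

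Each library's FPKM were scaled by the median ratio to a geometric mean, taken over genes reaching 1 FPKM everywhere, and log2(scaled FPKM + 1) was used. After removal of 23 genes whose Cufflinks status was not OK throughout, those reaching 1 scaled FPKM in 4 or more libraries were tested with limma 3.58.1 in R 4.3.3 (eBayes with a trend), with Benjamini-Hochberg adjustment and a threshold of 0.05. The fit was tested on simulated data. Other steps used Python 3.11.15 with pandas 2.3.3, numpy 2.4.6, matplotlib 3.10.9 and scipy 1.17.1. Alternatives changed the pseudocount (0.1), the filter (none, or a mean of 5 FPKM or more), the scaling (none, or quantile), the libraries (each left out, those holding Xist left out, or the knockouts with a Myh4 value left out) and the model (a replicate block, or Xist presence at 1 FPKM or more).

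The 10 genes, the other lists, the tests and the alternatives were chosen with earlier results of these data known. Genes that could be named beyond the 10 were the other Asb genes, Carm1, in each list the called genes or else the 2 with the smallest p, the 5 genes most like Asb10 and Asb4 without clone-type or small RNA names, and the neighbours of both. Cul5, Rnf7, Tceb2, Des, Flnc, Sgce, Myh2, Eif2s3y, Ddx3y and the fibre genes used to check the tissue were added after their values were seen. Protein sequences were not used here.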

Additional observations from a re-analysis of the deposited data

Results flagged for a closer look

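Among 34 groups of 4 libraries examined (the 16 tested Asb genes and Carm1 in each genotype), 3 held a library farther from its nearest neighbour than Dixon's 95% critical value allows, where chance gives about 5% of groups. Asb1 stood at 5.24 scaled FPKM in wildtype 1, against 3.36 to 3.65 in the other wildtypes, and wildtype 1 is the wildtype library that holds Xist. Asb13 stood at 12.7 scaled FPKM in knockout 4, above the other knockouts, and at 9.68 in wildtype 3, below the other wildtypes. None of the 3 is among the 10 genes.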

How the results depend on the processing

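Over all genes 40 were called (22 higher, 18 lower). The count was 8 without a filter, 15 at a mean of at least 5 FPKM, 223 with Xist as a covariate, 1 in the 5 libraries without Xist, 12 without the 2 knockouts that had Myh4 values, and 2 to 27 with 1 library left out. Without scaling 36 were higher and 13 lower, and the median log2 difference of all genes tested was 0.071. Of the 10 Asb genes 1 was called, Asb10, as it was with unscaled or quantile-normalized values, a pseudocount of 0.1 and a minimum mean of 5 FPKM. The count was 2 with the covariate (Asb10 and Asb4) and 0 without a filter, in the libraries without Xist and without the knockouts with Myh4, and 0 to 1 with 1 library left out. The median of the 10 was -0.28, -0.40 in the libraries without Xist, -0.43 without the knockouts with Myh4, and -0.35 to -0.23 with 1 library left out. As Asb10 and Asb4 were chosen in this contrast, nothing is read from these counts or from the median of the 10. The median of the 8 without Asb10 and Asb4 was -0.17, and -0.25 to -0.15 with 1 library left out. Asb3, at -0.00, turned to 0.066 without scaling, and Asb1, at 0.02, to -0.087 with the covariate, -0.065 without the Xist libraries and -0.18 without the knockouts with Myh4. With 1 library left out Asb1 ran from -0.065 to 0.14, Asb2 from -0.16 to 0.26, Asb3 from -0.094 to 0.10 and Asb11 from -0.32 to 0.011. Where libraries were left out fewer samples were fitted; otherwise the cause was not tested.

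The titles number the replicates and do not say whether same-numbered animals belong together. Deviations of same-numbered libraries correlated at -0.43, -0.19, 0.35 and 0.19 for replicates 1 to 4. In replicate 3 neither library held Xist, and in the others either the knockout or the wildtype did. These values therefore cannot show whether animals were paired. With the replicate number as a block limma called 0 genes and 0 of the 10, and the log2 difference of Asb10 remained -1.01. E-boxes stood in 57.7%, MEF2 cores in 2.31% and TEAD cores in 9.76% of promoters in the last 200 bases of the window.

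Depth is known only in relative terms, 4 animals per group limit precision, and Asb4 and Asb18 rest on low levels.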

Other observations

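Genes of denervated muscle and its junction were above 0 in 9 of 9 tested genes, with a median log2 difference of 0.35. Knockout 1 held a summed level of 214 FPKM, against 89.5 to 114 in the other knockouts and 73.4 to 92.0 in wildtypes, and without it the median was 0.11 with 8 of 9 above 0. Limma called 0 of them, 3 were higher at an unadjusted p under 0.05, against 7.03% of all genes, and 3 were higher without overlap, against 4.68%. Chrnd, an acetylcholine receptor subunit, stood at 2.996 ± 1.02 scaled FPKM in knockouts and 1.44 ± 0.259 in wildtypes, and Chrnb1, another subunit, at 37.3 ± 7.51 and 24.3 ± 4.35 (mean ± SD, n = 4 each). There were 15 tested genes of the myostatin and BMP pathways, which act on Asb2 in muscle. Limma called 0 of the 15, with a median of 0.02, and 2 were lower and 1 higher at an unadjusted p under 0.05. Without overlap 2 were lower and 2 higher, against 3.63% and 4.68% of all genes. With presence of Xist as a covariate 1 was called, Mstn, where 0.919% of all genes were called lower. Mstn, myostatin, stood at 11.6 ± 3.35 scaled FPKM in knockouts and 26.6 ± 4.70 in wildtypes, and Nog, a BMP inhibitor, at 2.84 ± 0.477 and 4.27 ± 0.541, both without overlap. The 12 ubiquitin ligases of atrophy had a median of 0.00 and 0 called by limma (0 at an unadjusted p under 0.05), with Fbxo30 at 0.20 (SE 0.13) and Trim63 at -0.63 (SE 0.35). Trim63 stood at 90.8 to 137 scaled FPKM in knockouts and at 416 in wildtype 3, against 131 to 160 in the other wildtypes, and without wildtype 3 its difference was -0.24.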
